A study of Rattus norvegicus with 30 samples.

Results

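The circadian clock genes examined here are Bmal1, Npas2, Clock, Cry1, Per1, Per2, Per3, Nr1d1, Nr1d2 and Dbp, as measured in the liver of handled and unhandled rats. They were chosen by name, and every probe set annotated to one of these symbols alone was used, with the older symbol Arntl read as Bmal1. This gave 17 probe sets for the 10 genes, of 31042 probe sets and 14217 named genes on an Affymetrix whole-genome rat array. All animals were female Sprague-Dawley rats of about 10 weeks, kept on a 12 hour light and 12 hour dark cycle with free access to feed, and RNA came from the left lobe of the liver. The first group of 10 rats was handled for 1 day and euthanised on day 2, and the second group of 10 was handled for 4 days and euthanised on day 5. Handling consisted of daily weighing, placement in a restrainer and oral gavage with water, with serial tail vein bleeding on the last handling day. The 10 control rats received no handling, and their necropsy also fell on day 2. No unhandled rats were taken on day 5, so for the rats handled for 4 days the later day and the handling cannot be told apart. The hour of necropsy of each rat is not given in the sources used here. The rats were housed in groups, and which of them shared a cage, a litter or a processing run is likewise not given. The p-values rest on the spread between these rats, each taken as independent. A shared cage, litter or run could not be allowed for.

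The clock is a transcriptional feedback loop. CLOCK or its relative NPAS2 pairs with BMAL1 and activates genes that carry E-boxes, among them the Per, Cry and Nr1d genes and Dbp. The PER and CRY proteins then inhibit the activator pair, and the NR1D receptors (REV-ERB) repress Bmal1, Npas2 and other genes through ROR elements. In rodent liver Bmal1, Npas2 and Clock therefore peak at the opposite time of day to Nr1d1, Dbp and the Per genes, and feeding time as well as light sets that phase.

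The recognition elements on which this loop is built were searched for in the 250 bases before each annotated RefSeq transcript start (assembly GRCr8), on both strands. A window was held for 9 of the 10 genes, 11 windows in all, with none for Cry1. The letters searched were CACGTG for the E-box, CACGTT for the variant E′-box, TTATGTAA for the D-box bound by DBP and its relatives, and TAGGTCA or TGGGTCA for the ROR element. Of 33469 windows of the same length, 5.59% held CACGTG, 4.07% held CACGTT, 0.828% held TTATGTAA, 2.26% held TAGGTCA and 3.44% held TGGGTCA. Matches were present for Bmal1, Nr1d1 and Per2, which sit on the repressed side and the activated side of the loop, and each is shown as a stretch of 30 bases, 5′ to 3′ on the strand of the gene, with the matching letters in capitals.
Bmal1, ROR element, chr1:176766298-176766327, plus strand: gggaaggcagaaagTAGGTCAgggacggag
Nr1d1, E′-box read on the opposite strand, chr10:84231969-84231998, minus strand: cgcatagagctcAACGTGcccgctgctgga
Nr1d1, E-box of a second start, chr10:84229628-84229657, minus strand: tgtcagctcccaCACGTGtctggggatcct
Per2, D-box, chr9:99497167-99497196, minus strand: ccatgtgcgtcTTATGTAAagagagcgacg
Per2, E′-box, chr9:99497038-99497067, minus strand: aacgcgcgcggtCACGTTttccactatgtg
The Bmal1 stretch, the second Nr1d1 stretch and the Per2 E′-box lie within the annotated span of their gene, and the first Nr1d1 stretch and the Per2 D-box lie outside it. A match describes the letters alone and was not tested for binding.

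Levels are given as log2 of the deposited intensity, a linear value for which each array averages about 1, so that most values below are negative. The arrays were alike in their summary values, with a mean intensity of 1.01 on each and a median between 0.118 and 0.125. Control rats 1, 2 and 3 stood apart from the other 27 rats over all genes, as earlier results of these data had shown. Their values are therefore given separately, and the fits are given with and without them. They were singled out by their expression and not by a label, so the comparison without them is a description of how the result depends on these 3 rats. The Gapdh control probe sets at the 3′ and 5′ ends of the transcript track RNA integrity and labelling, and the log2 ratio between the ends (3′ over 5′) was 0.66 to 0.83 in rats handled for 1 day, 0.70 to 0.96 in rats handled for 4 days and 0.55 to 0.70 in control rats. Hepatocyte markers (6 measured, Alb among them) summed to 257 to 281 after 1 day of handling, 252 to 291 after 4 days, 257 to 295 in control rats 4 to 10 and 253 to 282 in control rats 1 to 3, with 0 of the 6 called in any comparison. Of the marker lists for other liver and blood cell types, 1 gene of 5 T and NK cell markers was called, lower after 4 days, and that list summed to 0.402 to 0.591 after 1 day, 0.323 to 0.486 after 4 days, 0.429 to 0.581 in control rats 4 to 10 and 0.336 to 0.538 in control rats 1 to 3. The 4 measured Kupffer cell markers, of which 0 were called, summed to 15.4 to 25.6 (median 19.7) after 1 day, 12.7 to 17.7 (median 15.9) after 4 days, 14.6 to 24.3 (median 19.5) in control rats 4 to 10 and 14.6 to 16.9 in control rats 1 to 3. Cd68, Clec4f and Cd5l among them had 4-day differences of -0.37, -0.33 and -0.47 without control rats 1 to 3 (adjusted p = 0.236, 0.120 and 0.179). Cd163, the other measured marker, did not go with them, at 0.024 in the same comparison (limma adjusted p = 0.968). The part of either cell type in the clock gene results was not tested. In whole tissue, fewer cells of a type and less RNA per cell cannot be told apart. All directions follow the deposited values and labels. For those genes the study names as changed that could be compared, the deposited values run in the opposite direction to the one it gives, and the reason is not known here. Of 28 genes looked up, 25 were measured under a matching symbol, and all 25 ran the other way in both handled groups.

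With all 30 rats in the fit, few clock gene probe sets passed the test. After 1 day of handling 0 of the 17 were called against control (limma, adjusted p under 0.1), where 0.0902% of all probe sets were called, and 4 of 17 had an unadjusted p under 0.05, where 9.33% of all probe sets did. After 4 days 2 of the 17 were called, both of them for Clock and both higher, where 0.657% of all probe sets were called. Between 4 days and 1 day of handling 0 of 17 were called, as were 0 of all probe sets, 0 of 17 had an unadjusted p under 0.05 (1551 of all 31042 did), and 0 of 17 were called by the t-test of the methods. Without control rats 1 to 3, 2 of 17 were called after 1 day (0.329% of all probe sets) and 6 of 17, from 5 genes, after 4 days (0.828% of all). The median size of the change over the 10 genes was 0.31 on the log2 scale after 1 day and 0.34 after 4 days with all rats, beside 0.12 for all probe sets in both comparisons. Without control rats 1 to 3 it was 0.67 after 1 day and 0.93 after 4 days, beside 0.12 and 0.13 for all probe sets.

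**Figure D1:**
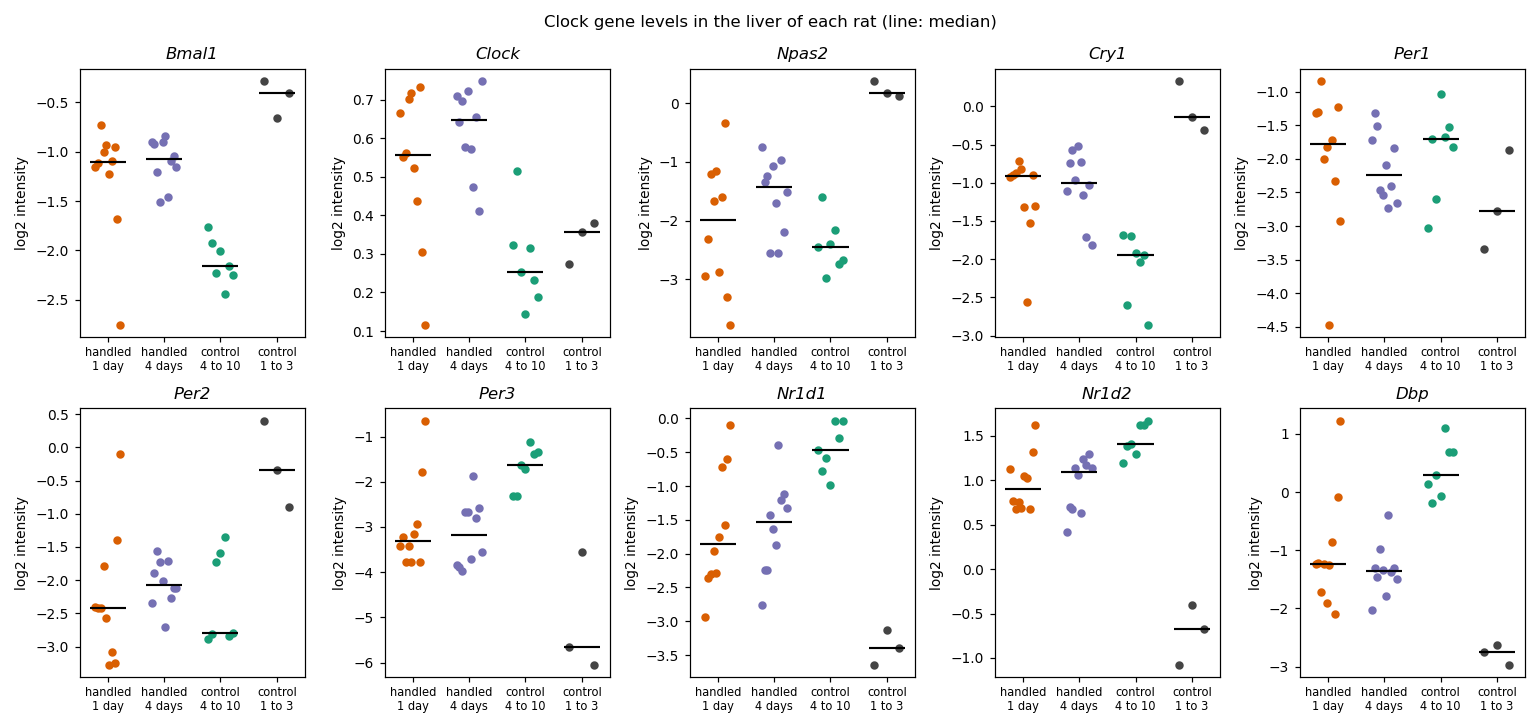
Log2 intensity of the brightest probe set of each clock gene (y axis) in every rat, by group (x axis), with control rats 4 to 10 and control rats 1 to 3 drawn apart and the median as a line. Control rats 1 to 3 do not overlap control rats 4 to 10 for Bmal1, Npas2, Cry1, Per2, Per3, Nr1d1, Nr1d2 and Dbp, and for all of these but Per3 and Per2 they lie beyond every handled rat as well. They were singled out because their expression stood apart over all genes. The share of all probe sets without such overlap is not given here, so this is not shown to be particular to clock genes.

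Among the activators, Bmal1 encodes the obligate partner of CLOCK and NPAS2. Its log2 level had a lowest, median and highest value of -2.75, -1.10 and -0.72 in rats handled for 1 day, -1.51, -1.07 and -0.84 in rats handled for 4 days, and -2.45, -2.16 and -1.77 in control rats 4 to 10. The values of -0.28, -0.66 and -0.40 in control rats 1, 2 and 3 lay above every other rat. All 10 rats handled for 4 days lay above all of control rats 4 to 10, and after 1 day 9 of the 10 rats did, rat 10 at -2.75 being below the control range and rat 9 at -1.68 just above it. With all rats the difference from control was 0.35 (SE 0.26, adjusted p = 0.714) after 1 day and 0.51 (SE 0.26, adjusted p = 0.465) after 4 days. Without control rats 1 to 3 Bmal1 rose by 0.85 (SE 0.19, limma adjusted p = 0.0668) after 1 day and by 1.01, a 2.01-fold change (SE 0.19, adjusted p = 0.0178), after 4 days. In that comparison 0.190% of all probe sets had groups that did not overlap.

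Clock, which encodes the DNA-binding partner of BMAL1, was the one gene called with all rats. Its brightest probe set had a lowest, median and highest log2 level of 0.12, 0.56 and 0.73 after 1 day, 0.41, 0.65 and 0.75 after 4 days, and 0.15, 0.29 and 0.51 in the 10 control rats. The first 3 control rats lay inside the range of the other controls for this gene. Clock rose by 0.32 after 4 days, a 1.25-fold change (SE 0.07, adjusted p = 0.0465). The second brightest probe set rose by 0.27 (SE 0.07, adjusted p = 0.0996), a call lost when any 1 of 25 of the 30 rats was left out, and the 2 dim ones were higher by 0.49 and 0.41 without passing the test. After 1 day the brightest probe set differed by 0.23 (SE 0.07, adjusted p = 0.274). Without control rats 1 to 3 it rose by 0.34 after 4 days (SE 0.08, adjusted p = 0.0585) and was higher by 0.25 after 1 day without passing the test (SE 0.08, adjusted p = 0.290). When the Gapdh ratio entered the fit of all rats as a covariate, the 4-day difference was 0.31 (SE 0.09) with an adjusted p of 0.363. The calls over all probe sets were then 5, against 204 without it. The ratio was higher in every rat handled for 4 days (lowest 0.7009) than in any control rat (highest 0.7006). The fit can therefore separate this ratio from the group only in part, and the part of RNA quality in the result was not tested further.

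Npas2, a relative of Clock that can replace it, varied most widely among the activators. Its log2 level had a lowest, median and highest value of -3.77, -1.99 and -0.34 after 1 day, -2.56, -1.43 and -0.75 after 4 days, and -2.99, -2.46 and -1.59 in control rats 4 to 10. The levels in control rats 1, 2 and 3 were 0.39, 0.18 and 0.12, above all other rats. The groups overlapped and no comparison passed the test. With all rats the difference was -0.49 (SE 0.46) after 1 day, and without control rats 1 to 3 its sign turned to 0.31 (SE 0.38). After 4 days it was 0.05 (SE 0.46) with all rats and 0.85 (SE 0.38, adjusted p = 0.397) without these 3.

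Cry1 encodes a repressor of the activator pair whose transcript peaks late, near that of Bmal1. Its log2 level had a lowest, median and highest value of -2.56, -0.91 and -0.71 after 1 day, -1.81, -0.998 and -0.52 after 4 days, and -2.86, -1.95 and -1.68 in control rats 4 to 10. Higher than any of these were control rats 1, 2 and 3, at 0.34, -0.14 and -0.31. Without these 3 rats Cry1 rose by 1.07 after 4 days (SE 0.23, adjusted p = 0.0419) and was higher by 0.92 after 1 day without passing the test (SE 0.23, adjusted p = 0.120). When all rats were kept the differences were 0.45 after 4 days (SE 0.32, adjusted p = 0.629) and 0.30 after 1 day (SE 0.32, adjusted p = 0.812).

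The 3 Per genes, which encode the partners of the CRY repressors, did not behave alike. Per3 had a lowest, median and highest log2 level of -3.78, -3.32 and -0.65 after 1 day, -3.98, -3.18 and -1.87 after 4 days, and -2.32, -1.63 and -1.13 in control rats 4 to 10. Control rats 1, 2 and 3 were at -5.66, -3.55 and -6.04, 2 of them below and 1 inside the range of the handled rats. Per3 fell by 1.47 on the log2 scale after 4 days without control rats 1 to 3 (SE 0.38, adjusted p = 0.0909), against a difference of -0.45 with all rats (SE 0.54, adjusted p = 0.813). After 1 day the difference was -1.30 without these 3 rats (SE 0.38, adjusted p = 0.215) and -0.28 with all rats (SE 0.54, adjusted p = 0.913). A second, dim Per3 probe set did not follow the first (r = -0.003 over 27 rats after subtracting group means).

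Per2 set control rats 1 to 3 apart in the other direction from Per3. They were at 0.40, -0.33 and -0.90, whereas the lowest, median and highest values were -3.27, -2.43 and -0.10 after 1 day, -2.71, -2.07 and -1.56 after 4 days, and -2.89, -2.80 and -1.36 in control rats 4 to 10. With all rats the difference from control was -0.59 (SE 0.39) after 1 day and -0.36 (SE 0.39) after 4 days, and without these 3 rats both signs turned, to 0.02 (SE 0.34) and 0.24 (SE 0.34). Per1, which in rodents also responds to glucocorticoids, had a lowest, median and highest value of -4.47, -1.78 and -0.84 after 1 day, -2.72, -2.24 and -1.32 after 4 days, and -3.34, -1.85 and -1.03 in all 10 control rats. The 3 Per1 ranges overlapped, and its difference from control was 0.14 after 1 day and 0.01 after 4 days with all rats (SE 0.34 each), and -0.085 and -0.21 without control rats 1 to 3 (SE 0.37 each). Neither gene passed the test in any comparison.

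The nuclear receptors Nr1d1 and Nr1d2 encode repressors of Bmal1, and both were lowest in the control rats in which Bmal1 was highest. Nr1d1 had a lowest, median and highest log2 level of -2.93, -1.86 and -0.09 after 1 day, -2.76, -1.53 and -0.40 after 4 days, and -0.98, -0.46 and -0.03 in control rats 4 to 10. Below every other rat were control rats 1, 2 and 3, at -3.64, -3.13 and -3.40. Without them Nr1d1 was lower by 1.21 after 1 day and by 1.17 after 4 days (differences of -1.21 and -1.17, SE 0.34 each), which did not pass the test (adjusted p = 0.196 and 0.139). When all rats were kept the differences were -0.32 and -0.29 (SE 0.46 each). In mammals Nr1d1 overlaps the end of Thra, the thyroid hormone receptor gene, on the opposite strand.

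Nr1d2 had a lowest, median and highest log2 level of 0.67, 0.90 and 1.62 after 1 day, 0.42, 1.10 and 1.30 after 4 days, and 1.20, 1.41 and 1.67 in control rats 4 to 10. Lower still were control rats 1, 2 and 3, at -1.07, -0.41 and -0.67. Its sign depended on them. With all rats the difference was 0.16 after 1 day and 0.14 after 4 days (SE 0.29 each), and without them it was -0.49 (SE 0.14, adjusted p = 0.203) and -0.51 (SE 0.14, adjusted p = 0.109). The second brightest probe set of the gene followed the first (r = 0.93 over 27 rats).

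Dbp encodes an output transcription factor that binds D-boxes, and its transcript has among the largest daily swings in rodent liver. Its log2 level had a lowest, median and highest value of -2.10, -1.24 and 1.23 after 1 day, -2.03, -1.35 and -0.39 after 4 days, and -0.18, 0.30 and 1.09 in control rats 4 to 10. Control rats 1, 2 and 3 were at -2.74, -2.62 and -2.96, below every other rat. All 10 rats handled for 4 days lay below all of control rats 4 to 10, and after 1 day rat 9 lay inside that range and rat 10 above it. Without control rats 1 to 3 Dbp fell by 1.42 on the log2 scale after 1 day (SE 0.33, adjusted p = 0.0752) and dropped by 1.73 after 4 days (SE 0.33, adjusted p = 0.0180), a 3.31-fold change. With all rats the differences were -0.47 (SE 0.47, adjusted p = 0.796) and -0.78 (SE 0.47, adjusted p = 0.555).

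**Figure D2:**
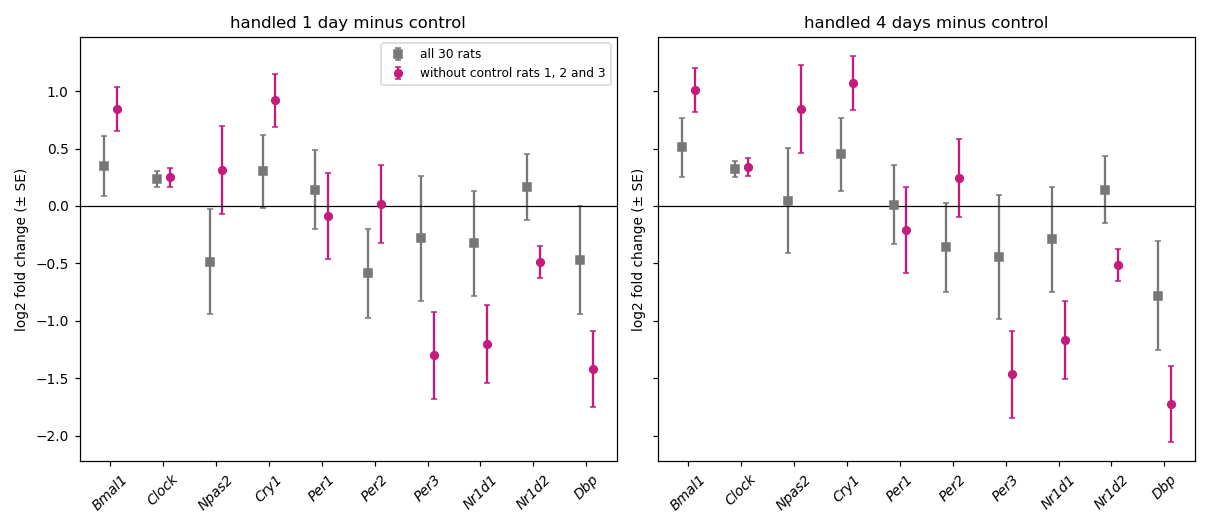
Log2 fold change against control (y axis, with SE) for the brightest probe set of each clock gene (x axis), after 1 day and after 4 days of handling, with all 30 rats (squares) and without control rats 1 to 3 (circles). Without these rats Bmal1 stands at 0.85 and 1.01 and Dbp at -1.42 and -1.73, against 0.35 and 0.51 and -0.47 and -0.78 with all rats.

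The genes of opposite phase were then set against each other array by array. Each gene was centred on its median over the 27 rats, and the mean of Nr1d1, Dbp, Per1, Per2 and Per3 was subtracted from the mean of Bmal1, Npas2 and Clock in each rat. This difference was -2.60 to 1.46 (median 0.32) in rats handled for 1 day, -0.73 to 1.26 (median 0.61) in rats handled for 4 days, -1.78 to -0.41 (median -1.38) in control rats 4 to 10, and 1.47 to 2.15 in control rats 1 to 3. It was above 0 in 8 of 10 rats handled for 1 day, 7 of 10 handled for 4 days, 0 of 7 of control rats 4 to 10 and 3 of 3 of control rats 1 to 3. The 2 rats below 0 after 1 day were rat 9 at -1.51 and rat 10 at -2.60. The 2 means lay on opposite sides of 0 in 6 of 10 rats handled for 1 day, 10 of 10 handled for 4 days, 7 of 7 of control rats 4 to 10 and 3 of 3 of control rats 1 to 3. In control rats 1, 2 and 3 not every gene went with the mean of its set. Clock was below its median (-0.28, -0.19 and -0.17) while Bmal1 and Npas2 were above theirs. Per2 was above its median (2.67, 1.94 and 1.37) while Nr1d1, Dbp, Per1 and Per3 were below theirs. These scores are a description and were not tested.

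**Figure D3:**
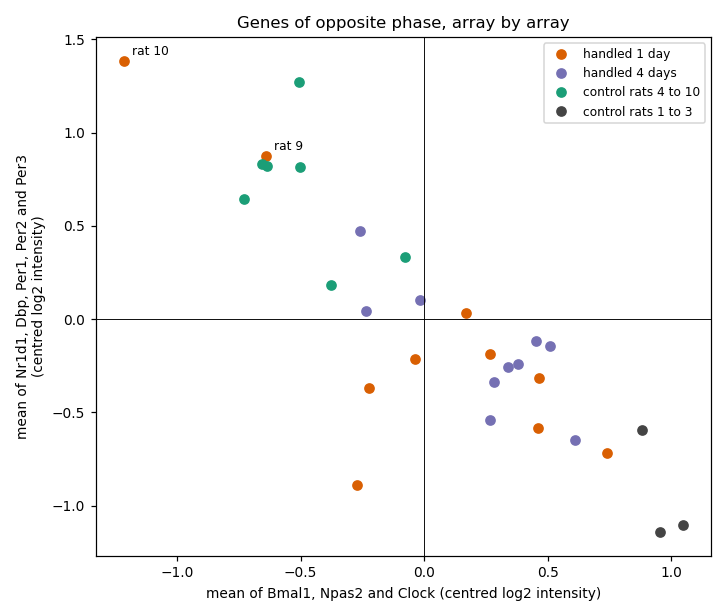
Mean centred log2 intensity of Bmal1, Npas2 and Clock (x axis) against that of Nr1d1, Dbp, Per1, Per2 and Per3 (y axis), 1 point a rat. The rats run from the upper left, where control rats 4 to 10 and rats 9 and 10 of the rats handled for 1 day lie, to the lower right, where control rats 1 to 3 lie.

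Pairs of these 8 genes were correlated across rats within each group (28 pairs in 3 groups, 84 correlations, Benjamini-Hochberg over all of them). Of the 15 opposite-phase pairs, r was below 0 in 12 in rats handled for 1 day (median -0.78), in 12 in rats handled for 4 days (median -0.57) and in 14 in control rats 4 to 10 (median -0.31). Adjusted p was under 0.05 for 9, 2 and 1 of them by Pearson's r and for 3, 0 and 1 by Spearman's rho. Of the 13 like-phase pairs, r was above 0 in 10, 10 and 11 in the same groups (medians 0.76, 0.31 and 0.31). Adjusted p was under 0.05 for 8, 5 and 1 of these by Pearson's r and for 2, 1 and 0 by Spearman's rho. The 5 after 4 days included Nr1d1 against Per1 with r below 0 (-0.74, adjusted permutation p = 0.0471). Bmal1 against Per3 had r = -0.97 (rho = -0.87) in rats handled for 1 day, with adjusted permutation p of 0.00588 and 0.0346. In control rats 4 to 10 the same pair had r = -0.93 (rho = -0.96), with adjusted exact permutation p of 0.0141 and 0.0346. In rats handled for 4 days it had r = -0.54 (rho = -0.32), which did not pass (adjusted permutation p = 0.236). Bmal1 against Dbp had r = -0.95 after 1 day (adjusted permutation p = 0.00874), -0.77 after 4 days (0.0347) and -0.83 in control rats 4 to 10 (0.0679), with rho of -0.78, -0.55 and -0.79 that did not pass. These r values changed when extreme rats were left out. Leaving out the 2 rats farthest from the median of the first gene, the median r of the opposite-phase pairs was -0.22 after 1 day, -0.15 after 4 days and -0.07 in control rats 4 to 10. The sign of r was kept in 13, 10 and 9 of the 15 pairs. Leaving out the extremes narrows the range and leaves fewer rats, which alone weakens r, so it cannot show how far the pairs rested on those rats. Bmal1 against Per3 kept r = -0.76 after 1 day without rats 9 and 10 and -0.86 in control rats 4 to 10 without rats 4 and 8, and Bmal1 against Per2 after 1 day had r = -0.82 with all rats and 0.28 without rats 9 and 10. Per1 had r of 0.32 and 0.45 against Bmal1 in rats handled for 1 day and 4 days and of -0.31 in control rats 4 to 10.

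**Figure D4:**
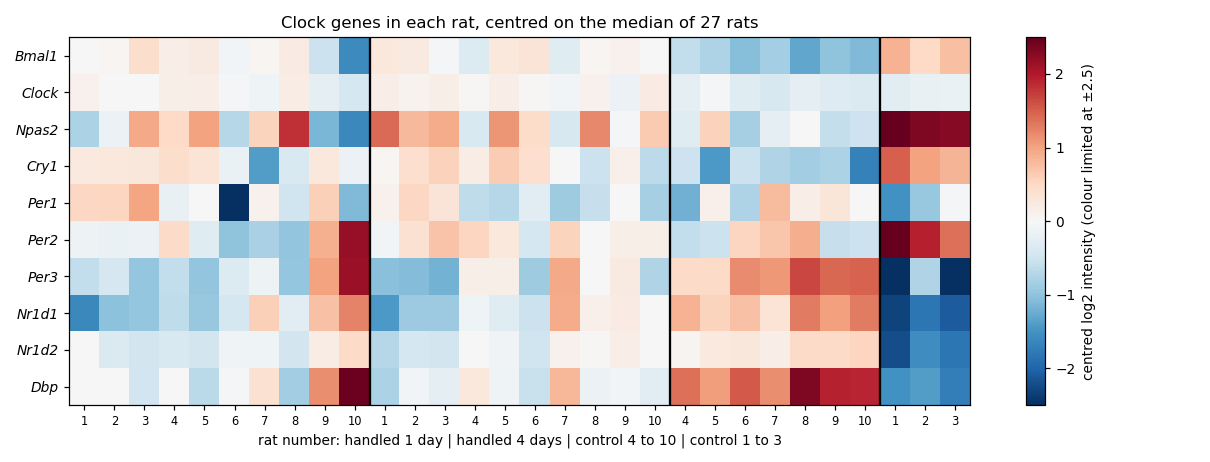
Log2 intensity of each clock gene (rows) in each of the 30 rats (columns), centred on the median of the 27 rats other than control rats 1 to 3, with red above and blue below the median. Within the rats handled for 1 day, rats 9 and 10 are low in Bmal1 and high in Dbp and Per3, as are control rats 4 to 10.

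The spread of the clock genes between rats of one group was wide after 1 day of handling. The median SD over the 10 genes was 0.94 in rats handled for 1 day, 0.44 in rats handled for 4 days and 0.45 in control rats 4 to 10, beside 0.33, 0.34 and 0.31 for all probe sets. Without rat 10 of the rats handled for 1 day, a choice made after seeing the data, it was 0.61 in the 9 others, beside 0.32 for all probe sets. Rat 10 of the rats handled for 1 day had the highest Dbp and Per3 and the lowest Bmal1, Npas2 and Clock of its group. When this rat was left out together with control rats 1 to 3, likewise a choice made after seeing the data, 8 of 17 probe sets were called after 1 day (0.364% of all probe sets) and 9 of 17 after 4 days (0.921%). The genes called after 1 day were then Bmal1, Clock, Nr1d1, Nr1d2, Dbp and Per3, and Cry1 joined them after 4 days. Rat 10 stood out in these same genes, so these counts and calls describe only how the result depends on the rats left out. With the Gapdh ratio as a covariate and without control rats 1 to 3, 0 of 17 were called after 1 day (0.103% of all probe sets) and 1 of 17 after 4 days (0.164%), which was Bmal1 (1.16, SE 0.24, adjusted p = 0.0635).

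Of 15 further clock genes, 11 were measured, and 0 rose and 0 fell against control in either handled group with all rats. Their median log2 difference was -0.13 after 1 day and -0.08 after 4 days, beside 0.00 for all probe sets. The smallest p after 4 days was that of Rora, an activator at the ROR element, with 0.43 (SE 0.12, adjusted p = 0.123), and after 1 day that of Timeless with -0.37 (SE 0.12, adjusted p = 0.289). After 4 days Cry2, the paralogue of Cry1, had -0.29 and Timeless -0.31. After 1 day Rora had 0.37 and Btrc, a ubiquitin ligase subunit that targets PER proteins, had -0.26, and none of these passed the test. Without control rats 1 to 3, 1 of 11 rose after 1 day, where 0.197% of all probe sets were called higher. This was Hlf, a D-box binding relative of Dbp, by 0.74 (SE 0.17, adjusted p = 0.0793), in the opposite direction to Dbp. The Hlf difference with all rats was 0.35 (SE 0.22, limma adjusted p = 0.645). Tef, a further such relative, differed in the direction of Dbp without control rats 1 to 3, and did not pass the test. Its differences were -0.51 after 1 day and -0.60 after 4 days (SE 0.20 each, adjusted p = 0.439 and 0.202). Of 15 liver genes known to follow the clock, 14 were measured and 0 were called with all rats. Their median log2 difference was 0.15 after 1 day and 0.20 after 4 days, beside 0.00 for all probe sets. Without control rats 1 to 3 this median was 0.02 after 1 day and -0.04 after 4 days. Among them Cyp7a1, the rate-limiting enzyme of bile acid synthesis, had a difference of -1.23 after 4 days (SE 0.36, adjusted p = 0.143). Without control rats 1 to 3 that difference was -0.72 (adjusted p = 0.420). Gys2, the liver glycogen synthase, fell by 0.94 after 4 days without control rats 1 to 3 (SE 0.22, adjusted p = 0.0545), where 0.828% of all probe sets were called. Its difference with all rats was -0.38 (SE 0.29, limma adjusted p = 0.658). With all rats the smallest p after 1 day were those of Alas1 (0.47), Tspan4 (0.27) and Cyp8b1 (0.69). Cyp8b1 had -0.08 without control rats 1 to 3. Noct had -0.96 and Nampt 0.32 after 4 days with all rats, and neither these nor the 1-day differences passed the test.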

How the data were processed

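Liver RNA of 30 rats, 10 a group, was hybridised to 1 array each. The authors deposited linear intensity values per probe set, made with GCOS and Rosetta Resolver. The summarisation and scaling are not given in the sources used here, no scanner files were used, and no scan or extraction batch is given. Arrays carry no read depth, so the number of rats limits the precision. Intensities were log2-transformed with no offset, and 31042 probe sets were kept after 57 Affymetrix controls were left out. Platform annotation gave 1 symbol for 20826 probe sets and several for 436. All 3 groups entered one fit in limma 3.58.1 (R 4.3.3, lmFit and eBayes), two-sided, with Benjamini-Hochberg adjustment over all probe sets and calls at an adjusted p under 0.1. The brightest probe set stood for a gene. Correlations used 100000 resamples for 10 rats and exact permutation for 7. The fit was tested on simulated data. The named genes were all members, every listed clock gene called or the 3 with the smallest p, and the 5 genes most and least like Bmal1 and Nr1d1. The members and lists were chosen with earlier results of these data known. Alternatives covered control rats 1 to 3, offset, normalisation, test, array weights, RNA quality, dim probe sets, threshold and each rat in turn.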

Additional observations from a re-analysis of the deposited data

Results flagged for a closer look

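Of 51 sets of 10 values (17 probe sets in 3 groups), 2 held a rat whose gap to its nearest neighbour was large for the range of its group by Dixon's test at the 95% level, where chance flags about 1 in 20. Bmal1 in rat 10 of the rats handled for 1 day was at -2.75, with the next lowest rat at -1.68. Cry1 in rat 7 of the rats handled for 1 day was at -2.56, with the next lowest rat at -1.53.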

How the results depend on the processing

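With control rats 1, 2 and 3 left out, the number of clock gene probe sets called moved to 2 after 1 day and 6 after 4 days, against 0 and 2 with all rats. With handled 1 day rat 10 also left out (chosen after seeing the data, and extreme in these same genes), the number moved to 8 and 9. With these 3 controls left out and the Gapdh ratio as a covariate (also chosen after seeing the data) it was 0 and 1. For the 4-day comparison the number was 1 with only those 2 groups in the fit, 1 at an adjusted p under 0.05 and 0 with the Gapdh ratio as a covariate in all rats. The replicate block is given below. The other planned settings in which all rats were kept left the counts at 0 and 2, and every setting gave 0 between 4 days and 1 day. Leaving out each rat in turn gave 1 to 2 after 4 days, and 2 only without control rat 1 or 7, handled 1 day rat 9 or 10, or handled 4 days rat 9. The count after 1 day stayed at 0 throughout. Across these settings, single rats left out aside, the count of all probe sets called ranged between 0 and 113 after 1 day, against 28, and between 5 and 490 after 4 days, against 204.

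The labels do not say that the replicate numbers pair the rats. The 30 same-number pairs had correlations of -0.04 to 0.12 (median 0.05), 1 of them over 0.1. Of 30 rats, 12 correlated best with their own number, which was 1 of 10 numbers compared for each rat. What a shared number stands for is not given and was not tested. With the number as a replicate block the count was 0 after 1 day and 1 after 4 days, and the calls over all probe sets were 2 and 85.

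The uncalled differences of several genes changed sign. Leaving out control rats 1 to 3 gave, after 1 day, Npas2 0.31, Nr1d2 -0.49, Per1 -0.085 and Per2 0.018, and after 4 days Nr1d2 -0.51, Per1 -0.21 and Per2 0.24. Leaving out rat 10 as well gave Npas2 0.50 and Nr1d2 -0.56 after 1 day, Nr1d2 -0.51, Per1 -0.21 and Per2 0.24 after 4 days, and Bmal1 -0.0045, Nr1d2 0.050 and Per3 0.10 between 4 days and 1 day. Without the 3 controls and with the Gapdh ratio, the values were Npas2 0.40, Nr1d2 -0.55 and Per2 0.060 after 1 day and Nr1d2 -0.58 and Per2 0.29 after 4 days. Array weights gave Nr1d2 -0.15 after 1 day, Nr1d2 -0.14 and Per1 -0.086 after 4 days, and Nr1d2 0.0047 between handled groups. An offset of 0.05 gave Npas2 -0.0015 and Per1 -0.0055 after 4 days. The causes were not tested.

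Leaving out 1 rat at a time, the range was -0.045 to 0.26 for Nr1d2 after 1 day, negative without control rat 1. After 4 days it was -0.10 to 0.27 for Npas2, -0.067 to 0.24 for Nr1d2 and -0.12 to 0.13 for Per1. Between 4 days and 1 day it was -0.0045 to 0.22 for Bmal1, -0.0034 to 0.24 for Cry1, -0.11 to 0.21 for Nr1d1, -0.062 to 0.050 for Nr1d2, -0.40 to 0.00086 for Per1 and -0.31 to 0.10 for Per3. Clock after 4 days stayed called, with 0.31 to 0.35 and an adjusted p of 0.0315 to 0.0864. The median r of the opposite-phase pairs was -0.22 after 1 day, -0.15 after 4 days and -0.0735 in control rats 4 to 10 without the 2 rats farthest from the median of the first gene, and -0.43 over all 10 control rats. The second probe sets of Per2 and Per3, the dimmest of Nr1d2 and the 2 dimmest of Clock had low levels, which limits what they can show.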

Other observations

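Over the 27 rats other than control rats 1 to 3, after subtracting group means, the genes outside the 10 clock genes that were most like Bmal1 were Litaf (r = 0.79), Wdr91, Slc6a6, Gstp3 and Rprm, and the least like it were Fnip2 (r = -0.83), Snd1, Pxk, Foxn2 and Eny2. By the same measure Bmal1 had r = -0.91 with Dbp, -0.85 with Per3, -0.76 with Nr1d2, -0.75 with Per2, -0.67 with Nr1d1, 0.71 with Npas2, 0.70 with Clock, 0.26 with Per1 and 0.11 with Cry1. The genes outside the 10 that were most like Nr1d1 were Jade1 (r = 0.82), Tns2, Dgat2, Rasd2 and Rnf126, and the least like it were Enc1 (r = -0.78), Insig1, Tmcc3, Mdfic and Crls1. Among the clock genes Nr1d1 had r = 0.82 with Per3, 0.77 with Nr1d2 and 0.76 with Dbp, and -0.67 with both Bmal1 and Clock. These are descriptions over 27 rats with no test.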
